A study of Mus musculus with 4 samples.

Results

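The moderate regions bound by both isoforms were stretches of the mouse genome at which ChIP-seq (chromatin immunoprecipitation and sequencing) listed a peak for Mef2Da1 and a peak for Mef2Da2, and at which at least 1 of both isoforms stayed low. A row of the combined region table was taken when it shared at least 1 bp with a listed peak of each isoform and when its coverage height was under 100 for Mef2Da1 or for Mef2Da2. Coverage height is the deposited height of the read pile-up in a region, in whole numbers and not scaled to sequencing depth. By this rule 4660 of 19749 combined regions were members. They made up 88.8% of the 5247 regions with peaks of both isoforms, and the other 587, at 100 or more for both, are called strong here. The remainder of the table held 3006 regions with a Mef2Da1 peak only, 3968 with a Mef2Da2 peak only and 7528 with no listed peak. The members were chosen by the peaks and coverage heights of both isoforms, so these values are given as descriptions. Blocked-control heights and the spacing along chromosomes were not used by the rule, nor was the placement of the peaks within a region, although the region bounds it.

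All libraries came from C2C12 cells, a line of mouse myoblasts that fuse into myotubes, after 5 days in low-serum differentiation medium with insulin and transferrin. The group Mef2Da1 was precipitated with an antibody raised against a peptide of that isoform, and Mef2Da1-BLOCK with the same antibody after blocking by peptide. The group Mef2Da2 and its control Mef2Da2-BLOCK were made in the same way with the antibody to the other isoform. The proteins were the endogenous ones, the labels name no modification of the cells, and each group was 1 library, so no value here has a replicate error and no test was possible. Intervals in parentheses after shares are exact (Clopper-Pearson) 95% binomial intervals. They cover counting error only and treat regions as independent, and the depth of the libraries was unknown.

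Mef2D belongs to the MEF2 family of MADS-box transcription factors, which bind A/T-rich sites and act with the MyoD family to activate muscle genes. Its transcript is spliced with either of a pair of mutually exclusive exons. The form with exon alpha1 is found in many tissues and can be phosphorylated by protein kinase A, which favours its association with repressors such as class II histone deacetylases, whereas the form with exon alpha2 appears in muscle as myoblasts differentiate. Both forms share the DNA-binding domain, and whether they occupy the same places in myotubes is the question that the regions with peaks of both address. Regions are named by coordinates of the build mm9, as the table gives them. Without a reference of that build, no genes, motifs or sequences were read from the regions.

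Across the 4660 moderate regions the isoform heights lay well above the heights of the blocked antibodies. Mef2Da1 heights ran from 42 to 222 with a median of 62 (quartiles 53 and 76), and Mef2Da1-BLOCK heights ran from 3 to 39 with a median of 19 (quartiles 15 and 25). Mef2Da2 heights ran from 34 to 460 with a median of 63 (quartiles 49 and 85), and Mef2Da2-BLOCK heights ran from 0 to 37 with a median of 13 (quartiles 9 and 16). The highest blocked value of either antibody was thus under the median of its isoform, although the ranges of Mef2Da2 and Mef2Da2-BLOCK met at the low end and those of Mef2Da1 and Mef2Da1-BLOCK did not. Unscaled, each isoform was higher than its own blocked control in 4660 of 4660 members, where 99.3% of all combined regions had that order for Mef2Da1 and 97.5% had it for Mef2Da2. Scaled to total height, the order held in 3463 members for Mef2Da1 (74.3%, interval 73.0 to 75.6), where 42.1% of all regions had it. It held in 3303 members for Mef2Da2 on that scale (70.9%, interval 69.6 to 72.2), where 42.5% of all regions had it. Since the rule used the isoform heights, nothing is read from these shares. In strong regions the median heights were 132 for Mef2Da1, 21 for Mef2Da1-BLOCK, 148 for Mef2Da2 and 14 for Mef2Da2-BLOCK. Isoform medians of moderate regions were thus far below those of strong regions by the choice of the limit, while the blocked medians, which the rule did not use, were nearly the same.

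**Figure D1:**
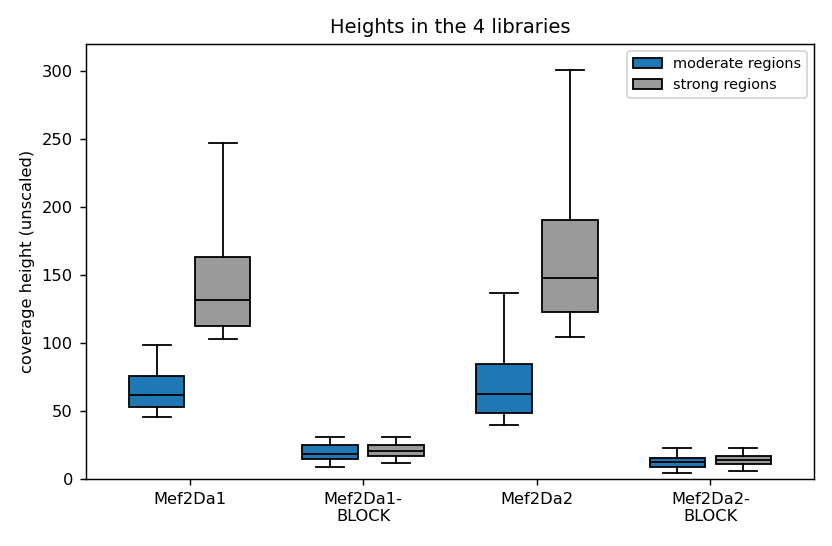
Coverage height (unscaled, vertical axis) in the 4 libraries for the 4660 moderate regions (blue) and the 587 strong regions (grey). Boxes show the quartiles with the median as a line, and whiskers run from the 5th to the 95th percentile of regions, not of replicates. Blocked controls had medians of 19 and 13 in moderate regions and of 21 and 14 in strong regions.

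The moderate regions fell into 3 sets by which isoform was under the limit. Both heights were under 100 in 3755 regions (80.6%), only the Mef2Da1 height in 691 (14.8%) and only the Mef2Da2 height in 214 (4.59%). On these unscaled heights, Mef2Da2 at 100 or more with Mef2Da1 under 100 was more frequent than the opposite case. Over all combined regions the 95th percentile of height was 118 for Mef2Da2 and 94 for Mef2Da1. The rule used these heights and depth was unknown, so nothing is read from this order. Mef2Da1 and Mef2Da2 heights were correlated across the members with a Spearman rho of 0.43 (n = 4660 regions of the same libraries, given as a description), against 0.43 in strong regions and 0.31 in the whole table. The limit and the listing thresholds cut both height distributions, which bears on these values.

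**Figure D2:**
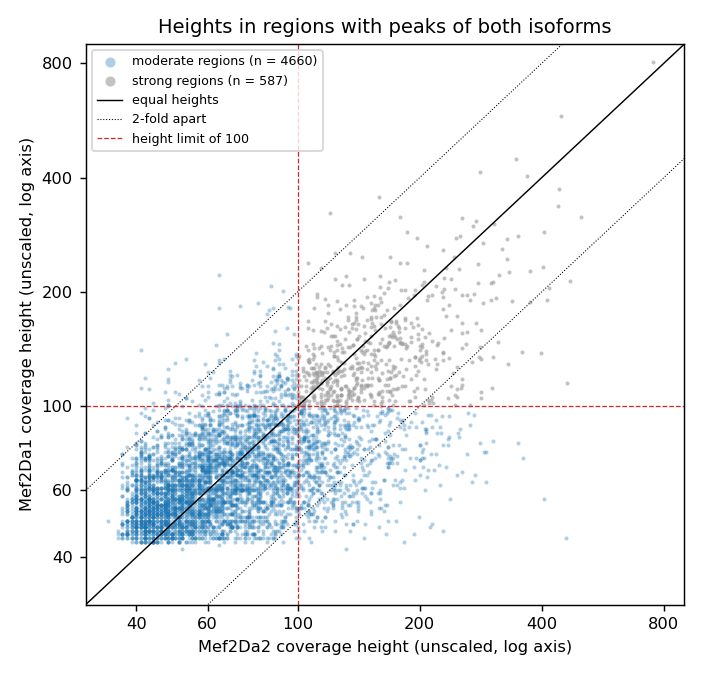
Mef2Da1 height against Mef2Da2 height (both unscaled, log axes) for each of the 4660 moderate regions (blue) and 587 strong regions (grey), with the height limit of 100 as dashed lines, equal heights as a solid line and 2-fold differences as dotted lines. Moderate regions fill the corner below 100 in both and 2 arms, of which the arm of high Mef2Da2 with Mef2Da1 under 100 holds 691 regions and the other arm 214.

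Moderate regions differed little between the isoforms in most places. With each library scaled to its summed height in the table, the ratio of Mef2Da1 to Mef2Da2 (with 1 added to each height) lay within 2-fold in 4354 of 4660 regions (93.4%, interval 92.7 to 94.1), where 83.4% of all combined regions did so. Mef2Da1 was over 2-fold higher in 40 regions (0.858%, interval 0.614 to 1.17), against 9.62% of all regions. Mef2Da2 was over 2-fold higher in 266 regions (5.71%, interval 5.06 to 6.41), against 7.03% of all regions. Since the rule asked for a peak of each isoform, large ratios were held back by the choice of members, and nothing is read from the distance to these backgrounds. The median log2 ratio was 0.00 with quartiles of -0.36 and 0.28, and in strong regions it was -0.15. Scaling set this balance. Scaled to the median ratio over all regions, Mef2Da1 was over 2-fold higher in 20 members (6.3% of all regions) and Mef2Da2 in 396 (9.71% of all regions), with a median log2 ratio of -0.16. Scaled to the totals of the blocked controls, Mef2Da1 was so in 2 members (1.71% of all regions) and Mef2Da2 in 1016 (21.8% of the members and 20.2% of all regions), with a median of -0.57. Without scaling the counts were 44 for Mef2Da1 (9.77% of all regions) and 245 for Mef2Da2 (6.6% of all regions). Among the members Mef2Da2 thus had more regions over 2-fold higher on each of these scales. Over all regions that order was reversed without scaling and when scaled to total height (9.62% for Mef2Da1 and 7.03% for Mef2Da2). The rule used these heights, so nothing is read from the order among the members.

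The regions over 2-fold apart lay almost wholly in the arms of the height plot. Of the 266 regions with higher Mef2Da2, 261 had only Mef2Da1 under 100, and these were 37.8% of that set. Of the 40 with higher Mef2Da1, 30 had only Mef2Da2 under 100, and these were 14.02% of that set. With both heights under 100, 10 regions had Mef2Da1 and 5 had Mef2Da2 over 2-fold higher, and 99.6% of the 3755 lay within 2-fold. The lowest heights in that set were 42 for Mef2Da1 and 34 for Mef2Da2, which left little room for larger ratios. The sets and the ratio are made of the same heights, so nothing is read from these counts. In the 266 regions Mef2Da1 had a median height of 61 (range 42 to 96) and Mef2Da2 one of 153 (range 92 to 460). In the 40 regions Mef2Da1 had a median height of 114 (range 85 to 222) and Mef2Da2 one of 48 (range 38 to 92). Blocked heights overlapped between these groups. Mef2Da1-BLOCK had medians of 22.5 in the 40 regions with higher Mef2Da1, 19 in the 266 with higher Mef2Da2 and 19 in the 4354 within 2-fold, and Mef2Da2-BLOCK had medians of 13, 13 and 12 in the same groups.

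Single regions show the extent of these differences. On chromosome 12, at 87432133 to 87433175, Mef2Da1 had a height of 45 against 14 in Mef2Da1-BLOCK, and Mef2Da2 had 460 against 17 in Mef2Da2-BLOCK. This was the lowest ratio of the set, a log2 of -3.35, and the highest summed height. The midpoints of its peaks were 228 bp apart. The 612 bp Mef2Da1 peak and the 392 bp Mef2Da2 peak shared 274 bp, so both heights need not lie at the same place. The blocked heights were similar to each other, with Mef2Da1-BLOCK below its member median of 19 and Mef2Da2-BLOCK above its member median of 13. The Mef2Da2 height stood out from all other libraries. On chromosome 1, at 74795224 to 74796558, the heights were 57 for Mef2Da1 against 31 for Mef2Da1-BLOCK, and 405 for Mef2Da2 against 17 for Mef2Da2-BLOCK (log2 of -2.83). Here the highest Mef2Da1 peak and the highest Mef2Da2 peak shared no base and their midpoints were 631 bp apart. The region thus joined separate peaks. It held 2 peaks of each isoform, so the highest ones need not be the nearest, and its ratio compares heights at different places. On chromosome 19, at 10775602 to 10776356, the heights were 73 for Mef2Da1 against 17 for its control and 359 for Mef2Da2 against 15 for its control (log2 of -2.31), with midpoints 9.5 bp apart and the whole 405 bp Mef2Da1 peak inside the 518 bp Mef2Da2 peak. The remaining regions among the 5 lowest ratios were on chromosome 3, at 108967514 to 108968699 (47 for Mef2Da1 and 228 for Mef2Da2), and on chromosome 6, at 97202636 to 97203022 (63 for Mef2Da1 and 291 for Mef2Da2). Their log2 ratios were -2.28 and -2.22.

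In the opposite direction the ratios were smaller. On chromosome 8, at 74842631 to 74843422, Mef2Da1 had a height of 222 against 30 in Mef2Da1-BLOCK, and Mef2Da2 had 64 against 17 in Mef2Da2-BLOCK, a log2 ratio of 1.75. The 778 bp Mef2Da1 peak held the whole 418 bp Mef2Da2 peak, and this was the highest Mef2Da1 height of any member. On chromosome 13, at 46714944 to 46715430, Mef2Da1 had 141 against 28 in its control, and Mef2Da2 had 41 against 24 in its control (log2 ratio 1.73). The Mef2Da2 antibody thus stood less than 2-fold above its blocked control at this place. On chromosome 6, at 145289140 to 145289629, Mef2Da1 had 182 against 18 and Mef2Da2 had 64 against 5 in their own controls (log2 ratio 1.47). The 2 others of this rank were on chromosome 13, at 51887509 to 51888696 (119 for Mef2Da1 and 42 for Mef2Da2), and on chromosome 4, at 63985347 to 63985989 (112 for Mef2Da1 and 41 for Mef2Da2), with log2 ratios of 1.45 and 1.40.

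Typical members had lower and more even heights, over blocked heights that varied widely. On chromosome 6, at 131354290 to 131354753, both isoforms stood at the median, with 62 for Mef2Da1 against 13 for Mef2Da1-BLOCK and 63 for Mef2Da2 against 3 for Mef2Da2-BLOCK. On chromosome 4, at 133169697 to 133170712, the isoform heights were the same, 62 and 63, but the blocked heights were 26 for Mef2Da1-BLOCK and 22 for Mef2Da2-BLOCK. Equal Mef2Da2 heights thus stood at a log2 of 4.00 above Mef2Da2-BLOCK in the first region and of 1.48 in the second.

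The comparison with the blocked antibodies asks how much of each height remained when the antibody could not bind its target. Mef2Da1 was at least 2-fold above Mef2Da1-BLOCK in 4273 of 4660 regions (91.7%, interval 90.9 to 92.5), where 64.7% of all combined regions were. Mef2Da2 was at least 2-fold above Mef2Da2-BLOCK in 4531 regions (97.2%, interval 96.7 to 97.7), where 75% of all combined regions were. For Mef2Da1 the median log2 ratio to the blocked control was 1.69, against 2.71 in strong regions and 1.19 over all regions. For Mef2Da2 it was 2.32, against 3.45 and 1.63. These ratios used unscaled heights. The isoform heights in them were the ones that chose the members, so a high share followed in part from the rule. Scaled to total height, the shares were 17.3% for Mef2Da1 (background 7.98%) and 27.6% for Mef2Da2 (background 15.8%). Scaled to the median ratio, they were 24.5% (background 11%) and 40.7% (background 23%). Over the whole table the median log2 ratio for Mef2Da1 was 1.19 unscaled, -0.13 scaled to totals and 0.04 scaled to the median ratio. No measure of depth was at hand to choose between the scales.

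Both isoforms together were at least 2-fold above their blocked controls, unscaled, in 4183 members (89.8%, interval 88.9 to 90.6), where 52.4% of all combined regions were. Mef2Da1 alone reached this in 90 members, Mef2Da2 alone in 348 and neither in 39. All 39 had both heights under 100. At 4-fold, both isoforms reached the mark in 1313 members (28.2%, interval 26.9 to 29.5), against 92.3% of strong regions and 11.4% of all regions. By the lower of both isoform heights, the unscaled 2-fold share was 82.5% for Mef2Da1 and 92.2% for Mef2Da2 at a lower height of 34 to 49 (1556 regions), 92.1% and 99.4% at 50 to 59 (1234 regions), 98.4% and 99.9% at 60 to 74 (1108 regions), and 100% for each at 75 to 99 (762 regions). Scaled to total height, the share was 7.46% for Mef2Da1 and 11.5% for Mef2Da2 at 34 to 49, 12.8% and 25.9% at 50 to 59, 22.0% and 36.2% at 60 to 74, and 37.5% and 51.0% at 75 to 99. These groups are defined by the isoform height, which is the numerator of the ratio and a value of the rule, so nothing is read from the order of the shares.

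**Figure D3:**
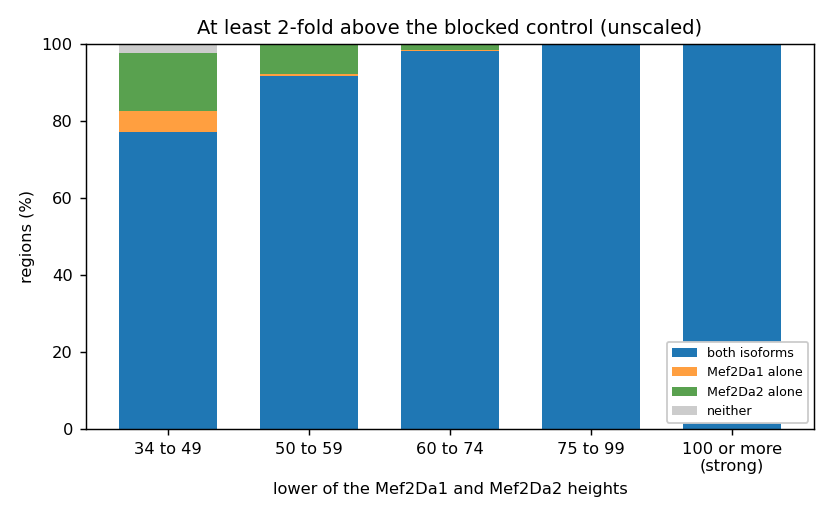
Share of regions (%, vertical axis) with both isoforms, 1 isoform or neither at least 2-fold above the blocked control, unscaled, in bins of the lower isoform height, which is itself part of the ratio. The share with both was 77.1%, 91.7%, 98.3% and 100% in the 4 bins of moderate regions and 100% in strong regions.

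The member nearest to its blocked controls was on chromosome 8, at 87595406 to 87596541. Its heights were 61 for Mef2Da1 against 37 for Mef2Da1-BLOCK, and 42 for Mef2Da2 against 37 for Mef2Da2-BLOCK, log2 ratios of 0.71 and 0.18, and it also had the highest summed blocked height. On chromosome 2, at 38250532 to 38251315, the contrast was uneven, with 46 for Mef2Da1 against 39 for Mef2Da1-BLOCK but 55 for Mef2Da2 against 11 for Mef2Da2-BLOCK. On chromosome 15, at 85920323 to 85921019, it was the reverse, with 48 against 25 for Mef2Da1 and 40 against 30 for Mef2Da2. At the other end, on chromosome 10 at 27167671 to 27167998, Mef2Da1 had 45 against 3 in Mef2Da1-BLOCK and Mef2Da2 had 74 against 0 in Mef2Da2-BLOCK. On chromosome 13, at 71514745 to 71515220, the values were 99 against 6 for Mef2Da1 and 167 against 11 for Mef2Da2, the highest ratio when the lower of both isoforms' ratios is taken. In the chromosome 10 region a low Mef2Da1 height thus occurred together with a high unscaled ratio to its blocked control. Its blocked heights of 3 and 0 were the lowest of the members, and both regions were chosen by this ratio.

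Mef2Da1-BLOCK and Mef2Da2-BLOCK heights had a Spearman rho of 0.51 (n = 4660 regions, a description). Mef2Da1 had a rho of 0.12 with Mef2Da1-BLOCK, and Mef2Da2 one of -0.06 with Mef2Da2-BLOCK. Over all 19749 combined regions, rho was 0.48 between the blocked antibodies, 0.32 between Mef2Da1 and Mef2Da1-BLOCK and -0.10 between Mef2Da2 and Mef2Da2-BLOCK. The rule limited the isoform heights of the members and not the blocked ones, so these values are not compared with each other. Both blocked heights went with the width of the region, with rho of 0.36 for Mef2Da1-BLOCK and 0.41 for Mef2Da2-BLOCK. In the narrowest of 4 width groups (311 to 508 bp) the median heights were 57 for Mef2Da1 against 15 for Mef2Da1-BLOCK and 59 for Mef2Da2 against 10 for Mef2Da2-BLOCK. In the widest group (904 to 4258 bp) they were 68 against 23 and 66 against 15. The median log2 ratio to the blocked control was 1.89 in the narrowest and 1.57 in the widest group for Mef2Da1, and 2.54 and 2.10 for Mef2Da2. The part of width in these ratios was not tested.

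Mef2Da1-BLOCK was higher than Mef2Da2-BLOCK in 3944 members (84.6%, interval 83.6 to 85.7), where 83.4% of all combined regions had that order. Scaled to total height the share was 51.0%, against 51.3% of all regions, so the members did not stand apart from the table in this. The deposited score of the blocked libraries, a column named as a −log10 p but with a few values below 0, was at least 3 in 943 members for Mef2Da1-BLOCK (20.2%, interval 19.1 to 21.4), where 16.5% of all regions were. It was at least 3 in 239 members for Mef2Da2-BLOCK (5.13%, interval 4.51 to 5.80), where 3.68% of all regions were. For Mef2Da1-BLOCK and Mef2Da2-BLOCK, these shares were higher in strong regions (22.1% and 5.79%) and with a Mef2Da1 peak only (26.4% and 6.22%). They were lower with a Mef2Da2 peak only (9.83% and 2.52%) and with no listed peak (13.3% and 2.22%). A score of 6, the level that the listed isoform peaks all passed, was reached in 0 members by either blocked library (upper bound of the interval 0.0791%), where 0.172% of all regions reached it for Mef2Da1-BLOCK and 0% for Mef2Da2-BLOCK.

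The distance between the peaks of both isoforms is a description, since a member had to hold a peak of each. The median region was 669 bp wide, and the highest peaks had median widths of 428 bp for Mef2Da1 and 372 bp for Mef2Da2, which bounds the distance between midpoints. The midpoints of the highest Mef2Da1 peak and the highest Mef2Da2 peak were a median of 29.5 bp apart (exact 95% interval 28 to 30.5, quartiles 13 and 58). They were within 50 bp in 3270 regions (70.2%, interval 68.8 to 71.5) and over 200 bp apart in 162 (3.48%, interval 2.97 to 4.04). The Mef2Da1 midpoint was at the higher coordinate in 2386 regions (51.2%, interval 49.8 to 52.6), at the lower one in 2248 (48.2%, interval 46.8 to 49.7) and at the same position in 26. The median signed offset was 1 bp (interval 0 to 3). In strong regions the median distance was 31.5 bp (interval 28 to 34.5) and 67.8% (interval 63.9 to 71.6) were within 50 bp. The intervals of both sets overlapped, and a difference in placement between moderate and strong regions was not resolved. By lower height, the median distance was 33.0 bp at 34 to 49, 29.2 bp at 50 to 59, 25.0 bp at 60 to 74 and 28.0 bp at 75 to 99.

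**Figure D4:**
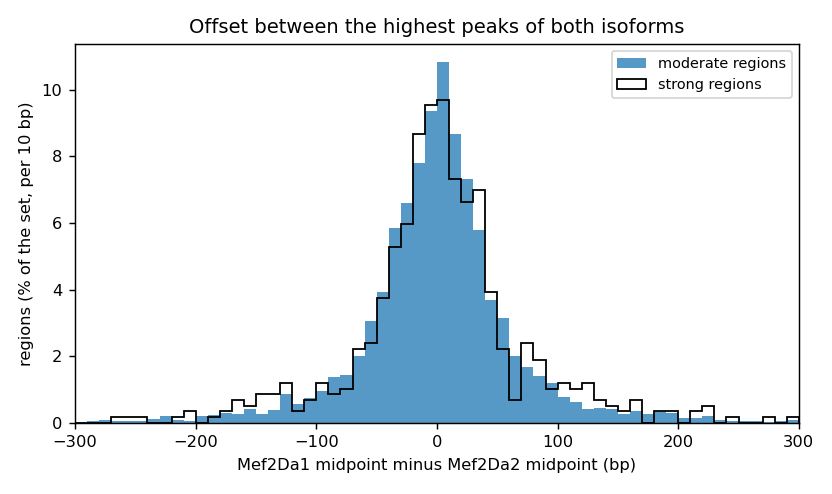
Distance from the Mef2Da2 midpoint to the Mef2Da1 midpoint (bp, horizontal axis, positive where Mef2Da1 is at the higher coordinate) against the share of regions per 10 bp (%), for moderate regions (filled) and strong regions (outline). Offsets beyond 300 bp are not drawn. Both distributions centre near 0, with medians of 1 bp and 1.5 bp.

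Mef2Da1 peaks were the wider ones. Their median width was 428 bp, against 372 bp for Mef2Da2 peaks in the same regions, and Mef2Da1 was wider in 3363 regions (72.2%, interval 70.9 to 73.5). The Mef2Da2 peak lay wholly inside the Mef2Da1 peak in 2206 regions (47.3%, interval 45.9 to 48.8) and the Mef2Da1 peak inside the Mef2Da2 peak in 600 (12.9%, interval 11.9 to 13.9). The order changed with the heights. In the 266 regions with Mef2Da2 over 2-fold higher, the Mef2Da2 peak was the wider one in 64.3% (interval 58.21 to 70.04), and in the 40 with Mef2Da1 over 2-fold higher, the Mef2Da1 peak was wider in 97.5% (interval 86.8 to 99.9). The part of height in these widths was not tested. Peaks were wider in strong regions, with medians of 607 bp for Mef2Da1 and 499 bp for Mef2Da2. Most members were simple, with 1 peak of each isoform in 4476 (96.1%) and several peaks of both in 60 (1.29%).

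In 52 members (1.12%, interval 0.834 to 1.46) the highest peaks of both isoforms shared no base, as in 5 strong regions (0.852%, interval 0.277 to 1.98). The farthest pair was on chromosome 12, at 88222727 to 88226013, where heights of 57 for Mef2Da1 against 31 in its control and 57 for Mef2Da2 against 18 in its control belonged to peaks 2023.5 bp apart. The next was on chromosome 15, at 76286318 to 76288671, with 64 against 32 for Mef2Da1, 40 against 27 for Mef2Da2 and 1416.5 bp between midpoints. Each of these regions held more than 1 Mef2Da1 peak, so the highest peaks need not be the nearest ones. Taking the nearest pair of peaks in each region gave a median distance of 29 bp. In the 4476 members with 1 peak of each isoform both choices are the same pair, so this median could hardly move.

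The members were spread over all 19 autosomes of the table. They made up between 21.7% (chromosome 2) and 26.4% (chromosome 13) of the combined regions of a chromosome, 23.6% in the table as a whole. Their density was 1.95 per Mb over all chromosomes, counted over the span up to the last region of each chromosome, and was highest on chromosome 15 with 3.31 per Mb (331 members) and lowest on chromosome 14 with 1.28 per Mb (147 members). The combined regions as a whole were as dense there in proportion, with 14.5 per Mb on chromosome 15 against 8.25 over all chromosomes, so the share of members on chromosome 15 was 22.8%. Isoform medians on chromosome 15 were 66 for Mef2Da1 and 63 for Mef2Da2, and blocked medians 23 for Mef2Da1-BLOCK and 15 for Mef2Da2-BLOCK. On chromosome 7 the blocked medians were 15 and 10. The regions of chromosome 15 that were not members also had high blocked medians, 22 for Mef2Da1-BLOCK and 14 for Mef2Da2-BLOCK. The part of this blocked level in the density was not tested.

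**Figure D5:**
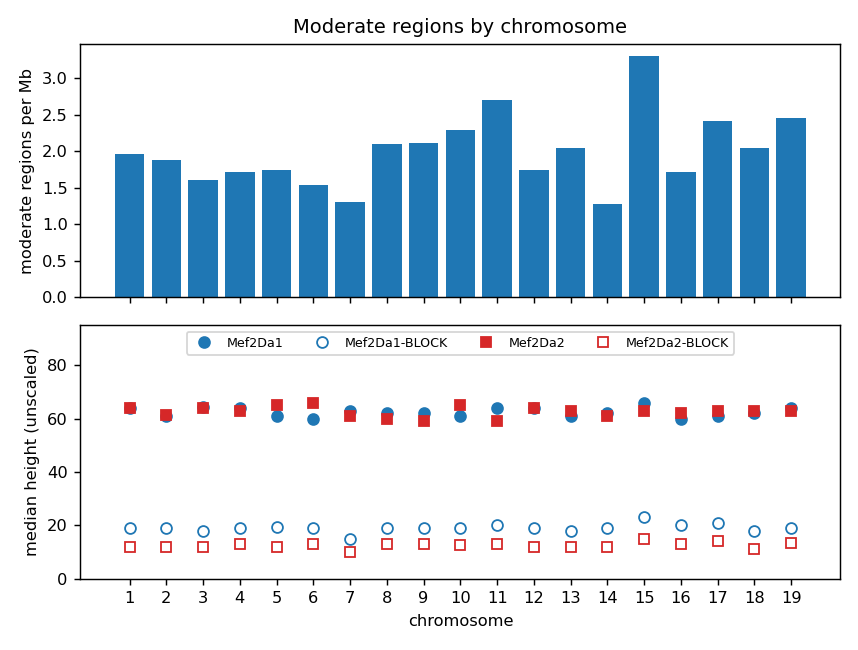
Moderate regions per Mb (upper panel) and median unscaled height of the moderate regions in each library (lower panel) by chromosome. Chromosome 15 has 3.31 regions per Mb and blocked medians of 23 and 15, above those of the other chromosomes, while isoform medians lie between 59 and 66 on all 19.

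Moderate regions had close neighbours more often than the table as a whole. Another combined region of any kind lay within 10 kb of 2560 members (54.9%, interval 53.5 to 56.4), against 56.7% (interval 52.6 to 60.8) of strong regions, 45.9% of regions with a Mef2Da1 peak only, 41.2% of those with a Mef2Da2 peak only, 46.6% of those with no listed peak and 47.7% of the whole table. The intervals of moderate and strong regions overlapped, and both lay above those of the other classes. Neighbouring regions are not independent, so these intervals are too narrow. Another moderate region lay within 10 kb of 1078 members (23.1%, interval 21.9 to 24.4). Another region of its own class lay that near in 8.01% of strong regions, 12.2% of regions with a Mef2Da1 peak only, 11.0% of those with a Mef2Da2 peak only and 24.1% of those with no listed peak. The classes differ in size, which sets such shares in part, so nothing is read from their order. The 1078 members formed 391 runs of 2, 74 of 3, 16 of 4 and 2 of 5 members, and the other 3582 members stood alone at that distance.

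The longest runs had 5 members each. On chromosome 2, from 173081961 to 173112247, Mef2Da1 heights ran from 57 to 111 against 19 to 32 in Mef2Da1-BLOCK, and Mef2Da2 heights from 40 to 99 against 19 to 25 in Mef2Da2-BLOCK. On chromosome 12, from 88157080 to 88175647, the ranges were 66 to 91 against 12 to 37 for Mef2Da1, and 40 to 124 against 9 to 31 for Mef2Da2. Within the chromosome 12 run the log2 ratio of Mef2Da1 to Mef2Da2 lay between -0.47 and 0.83, a span of more than 1 log2 unit. Over the 18 runs of 4 or 5 members, the highest minus the lowest log2 ratio within a run was from 0.08 to 2.41 with a median of 0.98. Runs were not compared with sets of distant members, so nothing is read about single runs. The median absolute difference in log2 ratio between neighbouring members was 0.43 within 10 kb and 0.46 at over 100 kb. Over all neighbouring members within 10 kb, the rho between the log2 ratios of both neighbours was 0.06 (595 pairs, a description), against 0.01 for neighbours over 100 kb apart (2597 pairs). Blocked heights of neighbours within 10 kb were more alike, with rho of 0.17 for Mef2Da1-BLOCK and 0.22 for Mef2Da2-BLOCK. At 10 to 100 kb these were 0.15 and 0.14, and at over 100 kb 0.07 and 0.08. The likeness was thus not limited to neighbours within 10 kb.

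The limit of 100 did not mark a visible break. At a lower height of 99 there were 23 members, and at 100 there were 13 strong regions. Just inside, on chromosome 4 at 45457395 to 45458736, Mef2Da1 had 99 against 21 in its control and Mef2Da2 had 167 against 13 in its control. Just outside, on chromosome 11 at 120440649 to 120441689, the values were 100 against 18 for Mef2Da1 and 101 against 7 for Mef2Da2. The 216 members with a lower height of 90 to 99 had median blocked heights of 20 for Mef2Da1-BLOCK and 14 for Mef2Da2-BLOCK and a median midpoint distance of 26.75 bp. The 143 strong regions from 100 to under 110 had 20, 13 and 26.5 bp.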

How the data were processed

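ChIP-seq was done on 4 libraries, 1 per group, grouped by the labelled antibody. Reads were aligned with BWA 0.5.9 to mm9, per the submitters' processing notes. Read numbers, peak caller, filters and the origin of the combined regions are not given in the sources used. The authors deposited a peak list per isoform and a combined table with a coverage height (signal, whole numbers, unscaled) for each library. For the isoforms the deposited table and lists also give a −log10 p, at least 6.01 in both lists. For the blocked controls that deposited column was read as a score, since 1 Mef2Da1-BLOCK and 9 Mef2Da2-BLOCK values lay below 0. The table's columns do not carry the sample titles and were matched through the peak list of each sample by name. In 4660 of 4660 members both isoform heights equalled the highest listed peak. A maximal height over a region does not measure how many reads lie in it.

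Ratios between the isoforms had 1 added to each height and were scaled to total height (973579 for Mef2Da1 and 955997 for Mef2Da2), and those to the blocked controls (377117 for Mef2Da1-BLOCK and 247315 for Mef2Da2-BLOCK) were unscaled. The count between isoforms takes ratios over 2-fold and that against the blocked controls ratios of at least 2-fold. Regions named in the text are the 5 with the highest summed height, the highest and lowest ratio of the isoforms, the heights nearest the medians, the highest summed blocked height, the highest and lowest ratio to the blocked controls and the heights next to the limit, and the longest runs, of which some are printed. The members and lists were chosen with earlier results of these data known. The regions with midpoints farthest apart, the height bins, the bands next to the limit, the score level of 3, the 4-fold counts, the width groups and the comparisons of neighbours were chosen after values were seen. The code for overlap, membership, midpoint distance, gaps and intervals of shares was tested on simulated lists, and the code for ratios was not. Coordinates of combined regions are as given in the table, whose counting base is not stated. The gene table at hand is of assembly GRCm38.p6, so genes, start sites and the MEF2 motif were not analysed here. The tools were SciPy 1.17.1, pandas 2.3.3, NumPy 2.4.6 and Matplotlib 3.10.9 under Python 3.11.15.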

Additional observations from a re-analysis of the deposited data

How the results depend on the processing

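No paired analysis was possible because each group was 1 library, and no replicate could be left out. Of 76 values of 9 results under alternatives, 44 stayed within their counting interval or, for the number of members, within 1.5 times. Asking for 50% overlap could not change any value, since all 4660 members held each of their peaks whole. Its values for the 9 results are among the 44 and show nothing about robustness. Leaving out chromosome 15 moved no value beyond its interval. The others were as follows, and their causes were not tested beyond what the alternative itself changes. The share with Mef2Da1 at least 2-fold above Mef2Da1-BLOCK was 90.0% with both heights under 100, 90.1% at a limit of 75, 98.0% at a −log10 p of at least 8, 87.3% with a pseudocount of 5, 17.3% scaled to totals and 24.5% scaled to the median ratio. The share with Mef2Da2 at least 2-fold above Mef2Da2-BLOCK was 96.6%, 96.7%, 99.7%, 95.2%, 27.6% and 40.7% under the same settings. The share of isoform ratios within 2-fold was 99.6% with both under 100, 92.6% at a −log10 p of 8, 94.2% with a pseudocount of 5, 91.1% scaled to the median ratio and 78.2% scaled to blocked totals. The share with Mef2Da1 over 2-fold higher was 0.266% with both under 100, 0.429% scaled to the median ratio and 0.0429% scaled to blocked totals. The share with Mef2Da2 over 2-fold higher was 0.133%, 8.50% and 21.8% under these settings and 6.75% at a −log10 p of 8, which left 2489 members. The share with another member nearby was 18.3% with both under 100, 18.9% at a limit of 75, 25.7% at 150, 15.5% at a −log10 p of 8, 15.3% for a gap of 5 kb and 50.3% for 50 kb. Mef2Da1-BLOCK was above Mef2Da2-BLOCK in 51.0% scaled to totals. The 10 named regions with extreme isoform ratios kept their direction in 40 of 40 alternative values and stayed over 2-fold in 37. They were chosen by these ratios, which were larger than the shifts that the alternatives made. The direction could thus not change, and its count shows nothing about robustness. The planned motif and start-site shares were not run for want of an mm9 reference. Unknown depth limits every ratio between libraries.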

Other observations

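The −log10 p of the combined table was not always that of the listed peak. It was under 6 in 224 members for Mef2Da1 (4.81%, exact 95% interval 4.21 to 5.46) and in 96 for Mef2Da2 (2.06%, interval 1.67 to 2.51), although no listed peak was under 6.01. At 1 height the −log10 p also varied. Among 138 members with a Mef2Da1 height of 60 it ran from 6.93 to 9.03, and among 93 with a Mef2Da2 height of 60 from 9.50 to 11.4.

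The nearest combined region within 10 kb of a moderate region was another moderate region in 29.5% of 2560 cases (interval 27.7 to 31.3) and a region without any listed peak in 35.0% (interval 33.2 to 36.9). The whole table holds 23.6% of the first kind and 38.1% of the second. The nearest region had a Mef2Da1 peak only in 12.6% and a Mef2Da2 peak only in 18.8%, against 15.2% and 20.1% of the table. The shares of the table count regions with and without a neighbour that near. They are thus not a like base, and nothing is read from the distance to them. For the other classes, the nearest region within 10 kb was moderate in 30.6% of cases for strong regions. This share was 28.9% for a Mef2Da2 peak only, 25.5% for no listed peak and 24.4% for a Mef2Da1 peak only. A moderate nearest region was thus not particular to moderate regions.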
